A study of Mus musculus with 6 samples.

Results

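The platelet-derived growth factor (PDGF) family was followed through 6 single-cell libraries of the postnatal mouse lung and brain cortex. Its 6 members, the ligand genes Pdgfa, Pdgfb, Pdgfc and Pdgfd and the receptor genes Pdgfra and Pdgfrb, were chosen by symbol out of 56884 listed genes, and all 6 were present in every library. The study asked what growth factors made by pericytes, the cells that wrap capillaries, do for the vessels and tissue around them. Each library was 1 genotype, pooled from 2 mice.

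The lung libraries came from mice of postnatal day 21 of the genotypes Bdnf lox/lox, Bdnf iPCKO, Hgf lox/lox and Hgf iPCKO, after depletion of CD45+ leukocytes and of erythrocytes. The cortex libraries came from mice of postnatal day 12 of the genotypes Nodal lox/lox and Nodal iPCKO, after removal of the meninges and of myelin debris. In the lox/lox controls both copies of the named gene are flanked by recombination sites. The iPCKO mutants, littermates of the controls, have in addition the transgene Pdgfrb(BAC)-CreERT2, a tamoxifen-dependent recombinase carried on a bacterial artificial chromosome of the Pdgfrb locus. The labels give 50 µg tamoxifen a day on days 1 to 3 after birth for all groups, and the sex of the mice is not given. The transgene is driven by the Pdgfrb promoter, which vascular smooth muscle uses as well as pericytes, so the loss need not be one of pericytes alone. Recombination is described by the study as scarce where PDGFRβ is low, among others in fibroblasts. Every mutant library holds both the transgene and the deletion and every control holds neither, so the effects of the 2 on any gene cannot be told apart.

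PDGFs are secreted dimers that act on receptor tyrosine kinases at the surface of mesenchymal cells. PDGF-A and PDGF-C signal mainly through PDGFRα, PDGF-B through both receptors and PDGF-D mainly through PDGFRβ. PDGF-C and PDGF-D are secreted as latent proteins that proteases must cut, whereas PDGF-A and PDGF-B are processed inside the cell. PDGF-B released by endothelial cells recruits PDGFRβ-positive pericytes to growing capillaries, and mice without either gene lose pericytes and bleed. PDGF-A made by the lung epithelium acts on PDGFRα-positive fibroblasts that form the alveolar septa, and in the brain PDGFRα marks oligodendrocyte precursor cells (OPCs).

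In GRCm39, Pdgfa (ENSMUSG00000025856) lies on the minus strand of chromosome 5 from 138961758 to 138983435, and Pdgfra (ENSMUSG00000029231) on the plus strand of the same chromosome from 75311994 to 75358876. Pdgfb (ENSMUSG00000000489) lies on the minus strand of chromosome 15 from 79880009 to 79899181. Pdgfc (ENSMUSG00000028019) lies on the plus strand of chromosome 3 from 80943668 to 81121473 and Pdgfd (ENSMUSG00000032006) on the plus strand of chromosome 9 from 6168240 to 6379265. Pdgfrb (ENSMUSG00000024620) lies on the plus strand of chromosome 18 from 61178212 to 61218133. All 6 are protein-coding, and a tag was counted anywhere in the annotated exons of a gene.

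The libraries held 33889545 to 186701379 unique molecular identifiers (UMIs, each the count of 1 captured RNA molecule), and 3237 to 24311 barcodes passed the minimum of 1500 UMIs, or of 700 UMIs in the Hgf pair. The median was 2841 to 7792 UMIs per barcode. Marker gates assigned 82.4 to 90.3% of these barcodes to a cell type, and 2.01 to 4.96% of the assigned cells lay near a gate. All markers of each gated type were detected in that type in every library, among them 8 lung pericyte markers led by Gucy1a1 and Higd1b and 7 cortex pericyte markers led by Kcnj8 and Vtn, with neither Pdgfrb nor any other family member in a gate. The control and mutant library of a pair shared 457, 254 and 21 barcodes for Bdnf, Hgf and Nodal, against 457, 259 and 17.8 expected when barcodes are drawn independently from the 912673 possible ones. Levels are UMIs of a gene scaled to the UMIs of the cell type, in the usual unit CPM, summed over its cells and given with a 95% Poisson interval, and a ratio is the log2 of mutant over control CPM with its 95% interval, given where both libraries together held at least 30 UMIs of the gene. With 1 library per genotype there is no test. The intervals cover counting error only, not the difference between mice or between preparations, nor the gathering of UMIs in few cells.

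The targeted genes were read first in the pericyte-like cells. Nodal had 188 UMIs (127 CPM, 109 to 146) in the control cortex and 0 UMIs, which allows up to 3 counts, in the mutant. Hgf stood at 154 CPM (97.3 to 230.3) in the control lung, and its mutant counterpart held 30.8 CPM (14.8 to 56.7). Bdnf had 5 and 2 UMIs, 13.5 and 6.06 CPM with overlapping intervals, too few for a ratio. The sources used here do not name the deleted exons, and tags from the rest of a gene would be counted whether or not the deletion took place.

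**Figure D1:**
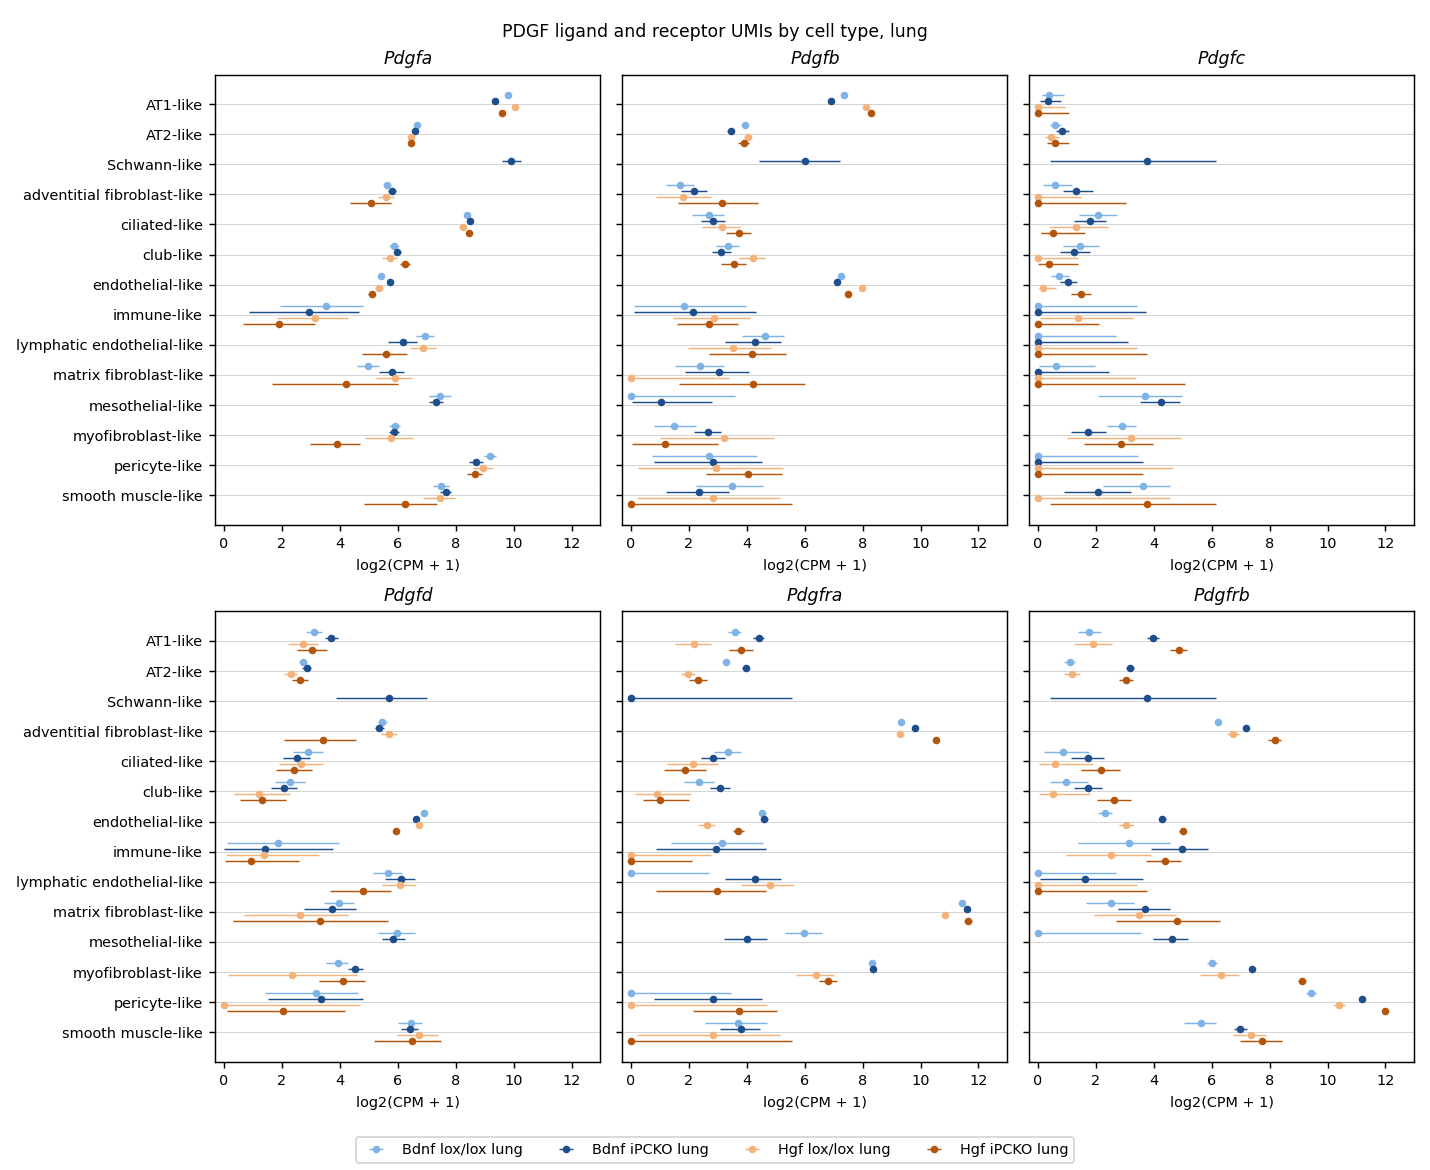
Each panel plots the level of 1 family member, as log2(CPM + 1) on the horizontal axis, in each cell type of the 4 lung libraries; light points are lox/lox controls, dark points iPCKO mutants (blue for Bdnf, orange for Hgf), and lines are 95% Poisson intervals for counting error. Pdgfa was highest in AT1-like cells in every library except the Bdnf iPCKO lung, where Schwann-like cells were above them, Pdgfra was highest in matrix fibroblast-like cells, and Pdgfrb was highest in pericyte-like cells with every mutant point for these cells above its control.

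Pdgfa in the lung controls was highest in alveolar type 1 (AT1)-like cells, the flat cells of gas exchange, and next in pericyte-like and ciliated-like cells. In AT1-like cells it stood at 896 CPM (879 to 913) in the Bdnf lox/lox and 1068 CPM (1036 to 1099.8) in the Hgf lox/lox lung, with a UMI in 96.6% and 91.4% of cells. Pericyte-like cells came next in both controls with 583 CPM (508 to 666) and 494 CPM (388 to 620), and ciliated-like cells after them with 336 and 301 CPM. The intervals of these 3 types did not overlap in either control. Alveolar type 2 (AT2)-like cells, which secrete surfactant, held 99.6 and 87.5 CPM, club-like cells 57.8 and 52.3 CPM and endothelial-like cells 41.7 and 39.6 CPM, all below the 166 and 157 CPM of barcodes with at most 100 UMIs, which hold free RNA and no cell. The 23 Schwann-like cells of the Bdnf iPCKO lung, the only group of these glia with at least 20 cells, held 971 CPM (767 to 1214).

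In the cortex the order of Pdgfa was another one. Vascular smooth muscle (vSMC)-like cells led with 529 CPM (476 to 585) in control cortex and 548 CPM (494 to 607) in mutant cortex. Neuron-like cells held 122 and 131 CPM, whereas pericyte-like cells, second in the lung controls, held 86.4 CPM (72.1 to 103) in the control cortex. Within the cortex endothelium Pdgfa followed the vessel type, with 117 CPM in arterial-like, 61.8 in venous-like and 10.8 in capillary-like control cells. Astrocyte-like cells had the lowest level of the types with enough UMIs for a ratio, 7.70 CPM.

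**Figure D2:**
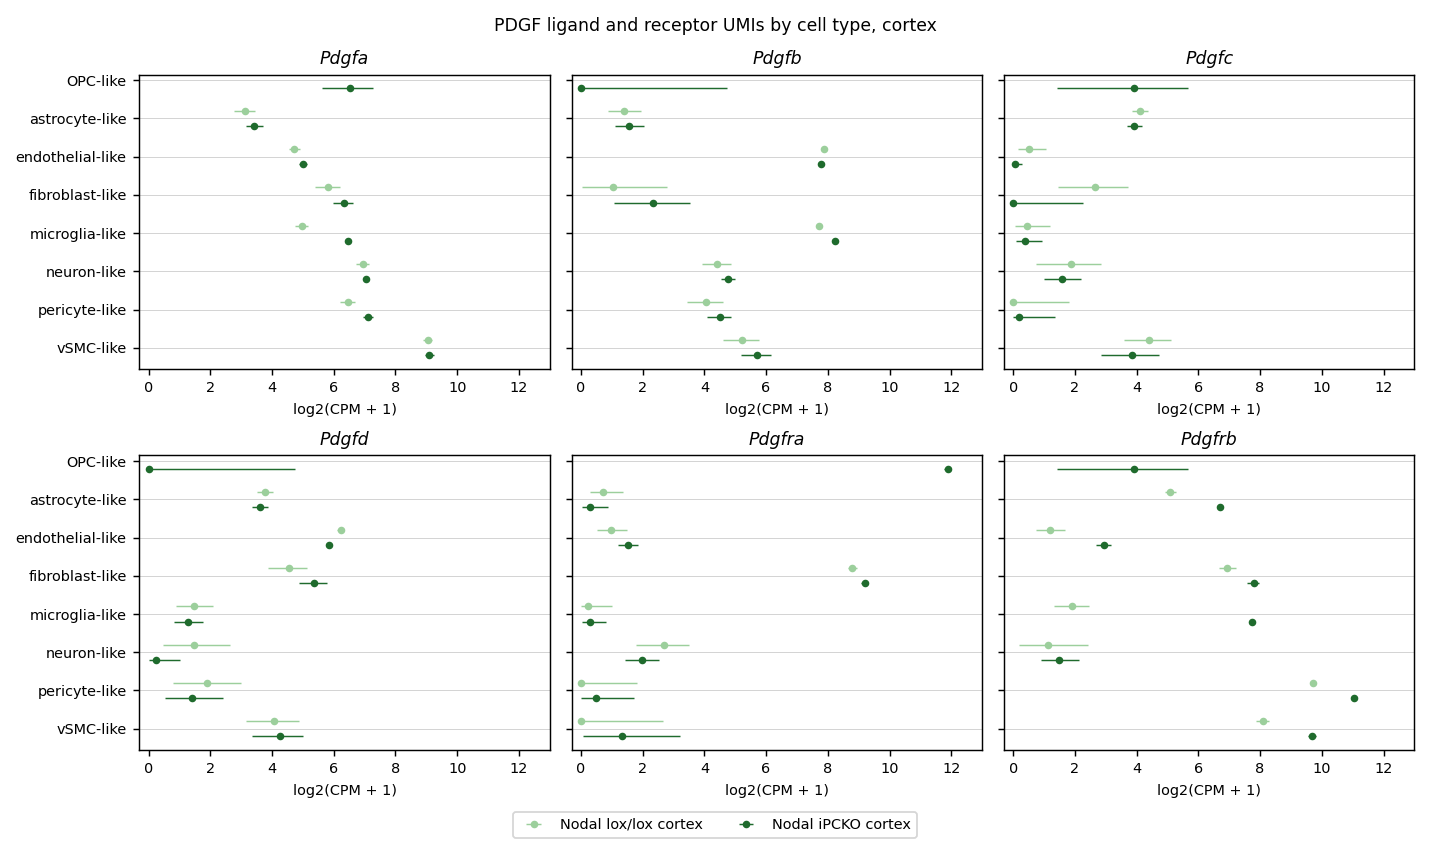
Each panel plots the level of 1 family member, as log2(CPM + 1) on the horizontal axis, in each cell type of the 2 cortex libraries; light green points are the Nodal lox/lox control, dark green points the Nodal iPCKO mutant, and lines are 95% Poisson intervals for counting error. Pdgfb was highest in endothelial-like and microglia-like cells, and Pdgfrb in microglia-like cells was at 2.73 CPM in the control and at 212 CPM in the mutant.

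Pdgfb, the pericyte-recruiting ligand, was present in endothelial-like cells of all 6 libraries, with control levels of 153 CPM (148 to 159) in the Bdnf pair, 251 CPM (243 to 260.1) in the Hgf pair and 232 CPM (222 to 242) in the cortex. A Pdgfb UMI was found in 42.4%, 38.8% and 78.5% of these cells. The endothelium was not the only source: AT1-like cells of the control lungs held 164 CPM (157 to 172) and 277 CPM (261 to 294), slightly above the endothelial level, and microglia-like cells of the control cortex held 209 CPM (197 to 221). Pericyte-like cells, which receive this ligand, held 5.40 to 21.6 CPM in the 6 libraries.

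**Figure D3:**
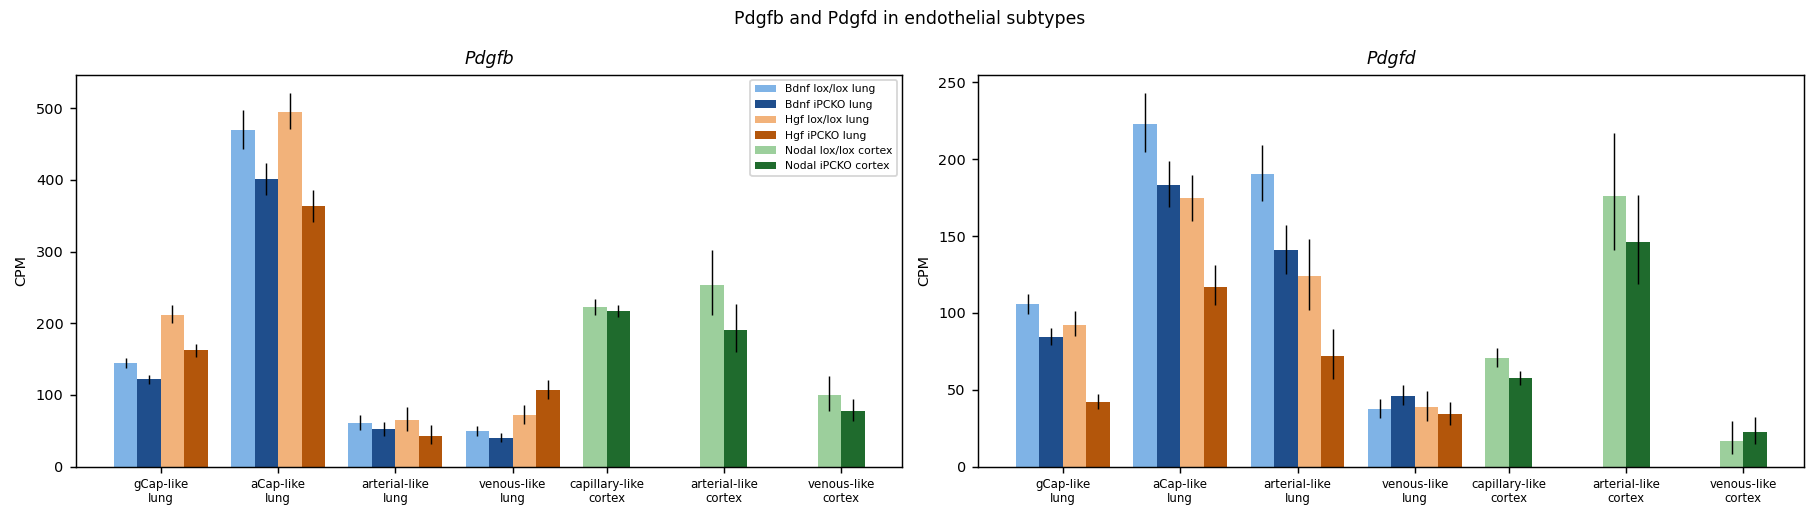
Bars give Pdgfb and Pdgfd (CPM, from 0) in endothelial subtypes of the 6 libraries; light bars are lox/lox controls, dark bars iPCKO mutants (blue for Bdnf, orange for Hgf, green for Nodal), and black lines are 95% Poisson intervals for counting error. Pdgfb in the lung peaked in aerocyte (aCap)-like cells at 363 to 495 CPM, while Pdgfd in the cortex peaked in arterial-like cells at 146 to 176 CPM.

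Among lung capillaries Pdgfb was concentrated in aerocytes, the large capillary cells specialised for gas exchange. Aerocyte (aCap)-like cells held 469, 401, 495 and 363 CPM in the Bdnf lox/lox, Bdnf iPCKO, Hgf lox/lox and Hgf iPCKO lungs, and general capillary (gCap)-like cells, the stem-like capillary population, held 145, 122, 212 and 162 CPM. The log2 ratio of aCap-like over gCap-like cells within a library was 1.69 (1.58 to 1.80), 1.72 (1.61 to 1.83), 1.22 (1.11 to 1.33) and 1.17 (1.04 to 1.29), so every library had the same order beyond its counting error. Arterial-like and venous-like cells were below gCap-like cells in all 4 lungs, at 43.3 to 64.4 CPM and 39.8 to 107 CPM.

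In the cortex the capillary-like and arterial-like cells had like levels of Pdgfb, with 222 CPM (211 to 234) and 253 CPM (211 to 302) in the control and a log2 ratio of arterial-like over capillary-like cells of 0.19 (-0.09 to 0.45). Venous-like cells held 99.6 CPM, a log2 ratio of -1.16 (-1.54 to -0.80) to capillary-like cells. The highest endothelial level was that of 22 tip-like cells of the mutant cortex, the leading cells of vessel sprouts, with 521 CPM (443 to 608) and a log2 ratio of 1.26 (1.02 to 1.49) over capillary-like cells. The control cortex had fewer than 20 such cells, so the genotypes were not compared there.

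Pdgfc, a latent ligand of PDGFRα, was close to the limit of detection. Its highest control levels were 20.1 CPM in vSMC-like and 16.2 CPM (13.4 to 19.4) in astrocyte-like cells of the cortex and 11.8 CPM in mesothelial-like cells, the lining of the lung surface. None of the 4 lung libraries held a Pdgfc UMI in pericyte-like cells, and the upper bounds were 9.96 to 24.6 CPM. Between 1.45 and 4.95% of the lung Pdgfc UMIs were in entries shared out between several genes, against at most 0.849% for the other members and the cortex.

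Pdgfd, a latent ligand of PDGFRβ, was highest in endothelial-like and, in the lung, smooth muscle-like cells. Endothelial-like cells held 119 CPM (114 to 123) and 105 CPM (99.9 to 111) in the control lungs and 73.9 CPM (68.5 to 79.5) in the control cortex, and lung smooth muscle-like cells held 85.8 and 105 CPM. In the lung Pdgfd, like Pdgfb, was highest in aCap-like cells, with 223 and 175 CPM in the controls, above gCap-like cells by 1.08 (0.93 to 1.23) and 0.92 (0.74 to 1.09) on the log2 scale. The subtypes differed from those of Pdgfb in the arteries. Arterial-like cells held 190.4 and 124 CPM in the control lungs, above gCap-like cells by 0.85 (0.69 to 1.01) and 0.42 (0.12 to 0.71) on the log2 scale, whereas Pdgfb was below gCap-like cells there by -1.25 (-1.51 to -0.99) and -1.72 (-2.11 to -1.35). In the control cortex arterial-like cells held 176 CPM of Pdgfd, 1.32 (0.97 to 1.65) on the log2 scale above capillary-like cells. Venous-like cells were lowest, with 37.3 and 38.5 CPM in the control lungs and 16.6 CPM in the control cortex. Adventitial fibroblast-like cells of the control lungs held 43.1 and 51.4 CPM. Barcodes without a cell held Pdgfd at 95.1 and 109 CPM in the control lungs and 137 CPM in the control cortex, above the adventitial levels, above the endothelial level of the Hgf control and the cortex, and above the smooth muscle-like level of both control lungs. The interval in the Hgf control, 100.2 to 118 CPM, overlapped those of both types there.

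Pdgfra was highest in fibroblasts and, in the mutant cortex, in OPCs. Matrix fibroblast-like cells, the lipid-rich fibroblasts of the alveolar wall, held 2782 CPM (2707 to 2858) and 1847 CPM (1715 to 1986) in the control lungs. Adventitial fibroblast-like cells, which surround larger vessels and airways, held 636 and 622 CPM, and myofibroblast-like cells, the contractile cells of alveolar entrance rings, 322 and 82.3 CPM. In the cortex fibroblast-like cells held 444 CPM (403 to 489) in the control, and the 25 OPC-like cells of the mutant 3783 CPM (3472 to 4114), with a UMI in 88.0% of them. Pericyte-like cells held 0 UMIs in the 3 controls, where the upper bounds were 9.96, 24.6 and 2.49 CPM, and 0.416 to 12.3 CPM in the 3 mutants. Endothelial-like cells of the control Bdnf lung had a Pdgfra UMI in 4.90% of cells at 22.2 CPM, beside 126 CPM in barcodes of that library with too few UMIs to hold a cell.

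Pdgfrb was highest in pericyte-like cells of all 6 libraries. In the controls these cells held 686 CPM (604 to 775), 1348 CPM (1169 to 1547) and 838 CPM (792 to 886) in the Bdnf, Hgf and Nodal pairs, with a UMI in 87.6%, 85.0% and 93.8% of cells. In the lung controls adventitial fibroblast-like cells held 73.1 CPM (67.4 to 79.3) and 106 CPM (92.1 to 121), myofibroblast-like cells 64.0 CPM (56.3 to 72.4) and 78.2 CPM (47.1 to 122), and smooth muscle-like cells 48.0 CPM (31.9 to 69.4) and 161 CPM (105 to 235). The order of these 3 types differed between the lungs, and neighbours in it had overlapping intervals. In the control cortex vSMC-like cells held 273 CPM (235 to 315), fibroblast-like cells 122 CPM (101 to 147) and astrocyte-like cells 33.1 CPM (29.1 to 37.5). The cortex fibroblast-like cells also held 2844 CPM of the 7 pericyte markers together, and the part of these in their Pdgfrb was not tested.

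Among the fibroblast types, the receptors met mostly in adventitial and cortex fibroblast-like cells. Both Pdgfra and Pdgfrb UMIs were found in 51.5% of adventitial fibroblast-like cells of the Bdnf control and 44.5% of the Hgf control, and in 58.0% of fibroblast-like cells of the control cortex. In matrix fibroblast-like cells both were found in 1.84% and 1.68% of the control cells, and in myofibroblast-like cells in 9.88% and 2.83%. No control pericyte-like cell had both. These shares rise with the number of UMIs per cell, whose control medians were 11236 and 6700.5 in adventitial and 3745 and 1841 in matrix fibroblast-like cells.

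The members were then compared between control and mutant libraries, and Pdgfrb, which the recombinase transgene may add to, was set against the rest of the family. In pericyte-like cells Pdgfrb went from 686 to 2343 CPM (2181 to 2515) in the Bdnf pair, a log2 ratio of 1.77 (1.57 to 1.98) and a 3.42-fold difference. It went from 1348 to 4093 CPM (3876 to 4319.5) in the Hgf pair, a log2 ratio of 1.60 (1.39 to 1.82), and from 838 to 2101 CPM (2043 to 2159.5) in the Nodal pair, a log2 ratio of 1.33 (1.24 to 1.42). Every mutant library was above every control library, and no control interval reached a mutant one. A gene was counted as past 2-fold where its level was at least 2-fold apart and its interval left out 0. In pericyte-like cells 3.35%, 6.76% and 1.52% of all genes with a ratio were past 2-fold higher in the mutants of the Bdnf, Hgf and Nodal pairs, and 1.84%, 4.42% and 0.962% past 2-fold lower. Pdgfrb stood at the 99.3, 97.0 and 99.1 percentile of the ratios of these genes, whose medians were 0.02, 0.05 and 0.01.

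**Figure D4:**
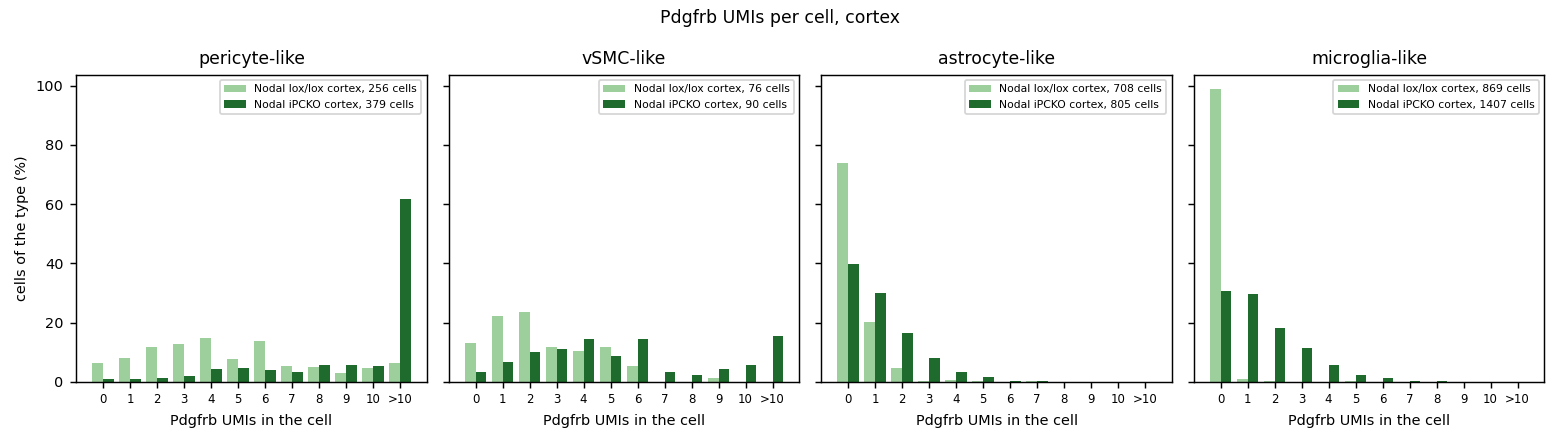
Bars give the share of cells (percent) by the number of Pdgfrb UMIs in the cell, for pericyte-like, vSMC-like, astrocyte-like and microglia-like cells of the cortex, with light bars for the Nodal lox/lox control and dark bars for the Nodal iPCKO mutant. The median pericyte-like cell of the control held 4 UMIs and that of the mutant 13, and the mutant microglia-like cells held mostly 0 to 2 UMIs where 859 of 869 control cells held none.

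The difference ran through the whole population of pericyte-like cells. The median cell held 2 Pdgfrb UMIs in the Bdnf and the Hgf control and 6 in their mutants, and 4 and 13 in the Nodal pair. Cells with at least 2 UMIs went from 62.9% to 95.4%, from 62.5% to 94.5% and from 85.5% to 97.9%. With all cells thinned to 1500 UMIs, or 700 UMIs in the Hgf pair, the pericyte-like cells that held a Pdgfrb UMI went from 62.0% to 94.3% in the Bdnf, from 58.4% to 91.5% in the Hgf and from 69.1% to 93.7% in the Nodal pair. Median depths were close within each pair, 3484 and 2839, 1798 and 1524, and 5359 and 5727 UMIs per cell. Other mural genes varied in direction. Cspg4, the NG2 proteoglycan of pericytes, went from 539.8 to 366 CPM, from 481 to 253 CPM and from 1217 to 1168 CPM. Rgs5 went from 208 to 448 CPM in the Bdnf pair, from 1228 to 836 CPM in the Hgf and from 26628 to 23443 CPM in the Nodal pair. Notch3 went from 1851 to 2101 CPM, from 2623 to 2588 CPM and from 1612 to 1486 CPM.

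Pdgfrb was also higher in the mutant library in other mural and fibroblast types. vSMC-like cells of the cortex went from 273 to 821 CPM (754 to 893) at a log2 ratio of 1.59 (1.35 to 1.83). Myofibroblast-like cells went from 64.0 to 165 CPM and from 78.2 to 553 CPM, log2 ratios of 1.37 (1.16 to 1.58) and 2.82 (2.16 to 3.57), and adventitial fibroblast-like cells from 73.1 to 144 CPM and from 106 to 287 CPM, log2 ratios of 0.98 and 1.44. The myofibroblast-like cells of the Hgf pair, 106 and 456 of them, rest on 19 control UMIs of Pdgfrb and also differed in their own 7 markers, which summed to 21381 and 14277 CPM, and in the pericyte markers, 419.9 and 98.1 CPM. The part of these differences in the ratio was not tested. Lung smooth muscle-like cells of the Bdnf pair went from 48.0 to 126 CPM, and their Rgs5 from 46.3 to 212 CPM (2.19, 1.62 to 2.82). Those of the Hgf pair, with 62 and 41 cells, held Pdgfrb at 161 and 214 CPM, a log2 ratio of 0.41 whose interval of -0.56 to 1.35 holds 0. Cortex fibroblast-like cells went from 122 to 219.8 CPM at a log2 ratio of 0.84, and the mural genes Rgs5 and Cspg4 were higher in them too, from 22.2 to 236 CPM (3.41, 2.77 to 4.13) and from 10.6 to 53.2 CPM (2.33, 1.34 to 3.47). The share of cells with an Rgs5 UMI was lower, 26.1% in the control and 18.7% in the mutant, whose 231 UMIs lay in 14 cells. For Cspg4 the share was 10.1% and 28.0%. At the ratio of Pdgfrb to the pericyte markers in the pericyte-like cells of each library, the markers in smooth muscle-like cells would carry 60.6 and 158 CPM in the Bdnf pair and 154 and 243 CPM in the Hgf pair, and those in cortex fibroblast-like cells 154 and 309 CPM, above every level measured there except that of the Hgf control. The same reading gave 88.3 and 238 CPM in vSMC-like cells, below the level measured. Across the 3 pairs all 20 Pdgfrb ratios were above 0 and 17 were past 2-fold higher.

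**Figure D5:**
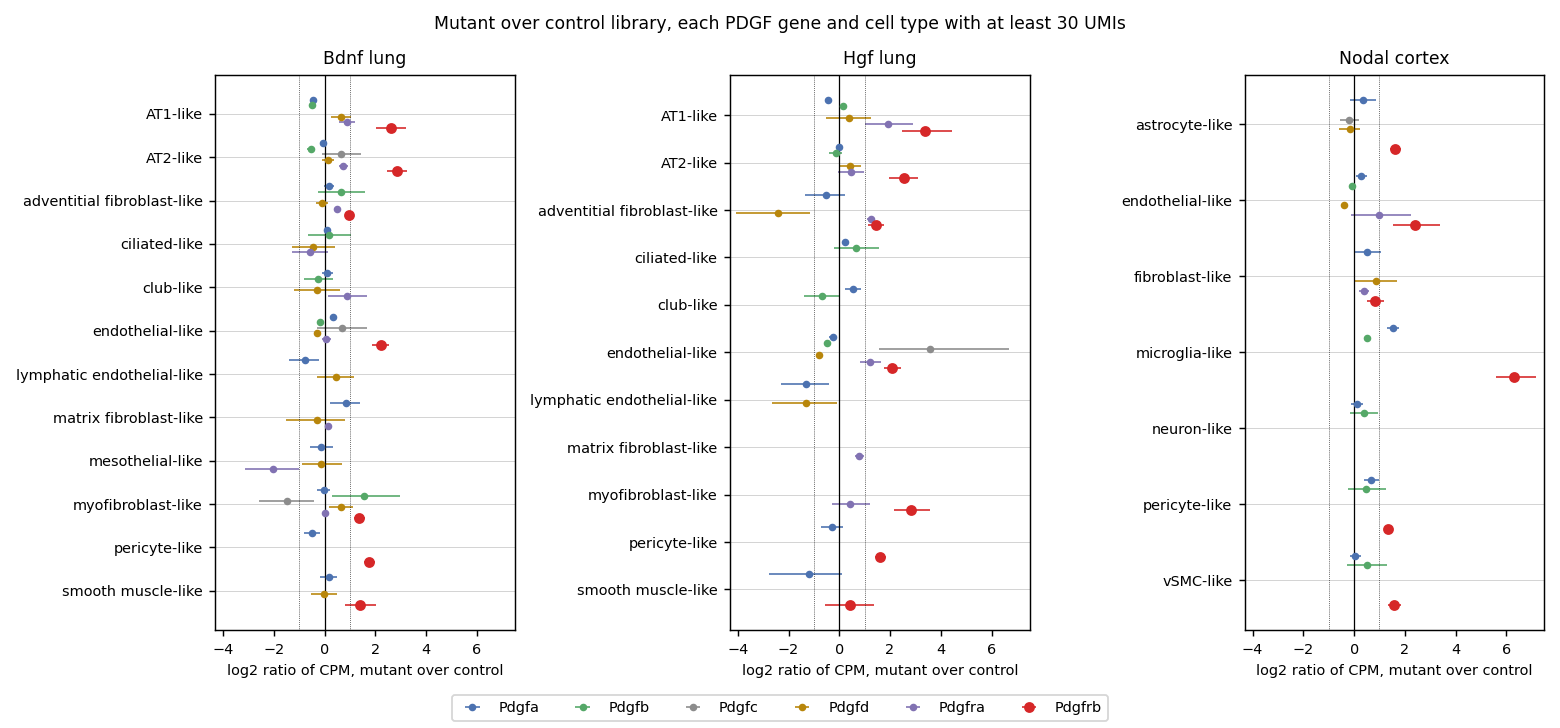
Log2 ratio of mutant over control CPM for each member and cell type with at least 30 UMIs over both libraries, in a panel for each pair, with 95% intervals for counting error; the solid vertical line marks equal levels, the dotted lines a 2-fold difference either way, and the large red points are Pdgfrb. All 20 Pdgfrb ratios lie above 0, against 49 of 86 of the other 5 members, and some types reached 30 UMIs of Pdgfrb through the mutant library. In several cell types both Pdgfrb levels lie below that of barcodes without a cell, and the part of free RNA was not tested.

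The other 5 members gave 86 ratios, of which 49 were above 0, 6 were past 2-fold higher and 5 past 2-fold lower. The pairs differed in their backgrounds. Pooled over all cell types, 2.83% of all gene ratios were past 2-fold higher and 1.63% lower in the Bdnf pair, 5.93% and 6.54% in the Hgf pair and 1.64% and 1.85% in the Nodal pair. Against these, the other 5 members had 1 higher and 2 lower of 42 in the Bdnf pair, 4 and 3 of 26 in the Hgf pair and 1 and 0 of 18 in the Nodal pair, while Pdgfrb had 6 of 7, 6 of 7 and 5 of 6 higher and none lower. Cell types of 1 pair share their libraries, so these ratios are not independent of each other.

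Microglia-like cells, the resident macrophages of the brain, showed the widest gap. Pdgfrb was at 2.73 CPM (1.5 to 4.42) in 869 control cells and at 212 CPM (203 to 221) in 1407 mutant cells, a log2 ratio of 6.31 (5.58 to 7.15), or 79.1-fold. A Pdgfrb UMI was found in 1.15% of control and 69.2% of mutant cells, at medians of 6164 and 6444 UMIs per cell, and in 0.379% and 27.9% with all cells thinned to 1500 UMIs. In these cells 2.65% of all genes with a ratio were past 2-fold higher in the mutant. In the same mutant library 3.08% of endothelial-like cells had a Pdgfrb UMI, at a median of 10032 UMIs per cell. Barcodes without a cell held Pdgfrb at 81.9 CPM (70.6 to 94.4) in the Nodal lox/lox cortex and at 271 CPM (254 to 289) in the Nodal iPCKO cortex. Both lay above the level of microglia-like cells of their library, and the part of free RNA in the Pdgfrb of these cells was not tested. Of the mutant microglia-like cells, 39.4% held at least 2 UMIs of Pdgfrb and the highest held 13.

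Levels of other mural genes were read in the same cells. The 10 mural genes outside the cell type gates summed to 67.8 and 96.8 CPM in control and mutant microglia-like cells, against 41695 and 38608 CPM in pericyte-like cells, and none of the 10 was at 0. Among these, Mcam was also a marker of the tip-like subtype of endothelial-like cells. Rgs5, the most abundant of them, went from 31.8 to 49.7 CPM in microglia-like cells, and Cspg4 from 1.07 to 6.55 CPM. At the ratio of Pdgfrb to the 7 pericyte markers seen in the pericyte-like cells of the same library, the markers found in microglia-like cells would carry 1.14 and 3.88 CPM of Pdgfrb in control and mutant cortex, against the 2.73 and 212 CPM measured. In the microglia-like cells without a single UMI of the 7 markers, Cspg4, Notch3 or Rgs5, Pdgfrb was at 1.67 CPM (0.647 to 3.32) in 692 control and 215 CPM (205 to 225) in 1168 mutant cells, with a UMI in 0.867% and 68.6%.

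The same measures were taken in other cell types. Astrocyte-like cells went from 33.1 to 102 CPM of Pdgfrb, a log2 ratio of 1.62 (1.42 to 1.83), against 2.61 and 5.61 CPM at the pericytes' ratio, and those without a mural UMI held 30.6 and 105 CPM. Only 177 of 708 and 193 of 805 astrocyte-like cells remained there, since Notch3 was itself at 108 and 114 CPM in these cells, with a UMI in 57.6% and 61.2% of them. Endothelial-like cells went from 4.00 to 18.5 CPM, from 7.26 to 30.9 CPM and from 1.26 to 6.61 CPM, close to the 3.82 and 17.0, 9.41 and 35.6, and 1.46 and 5.74 CPM given by their pericyte markers. Without cells holding a mural UMI the endothelial levels were 0.501 and 3.98, 0.932 and 7.88, and 0.640 and 1.57 CPM. In the Nodal pair these are 3 and 18 UMIs, and the log2 ratio of 2.39 (1.53 to 3.38) became 1.30 (-0.48 to 3.70), whose interval holds 0. AT1-like cells went from 2.42 to 14.8 CPM and from 2.69 to 28.2 CPM, log2 ratios of 2.61 and 3.39, against 2.72 and 9.36 CPM and 3.01 and 22.5 CPM at the pericytes' ratio, and without such cells from 0.614 to 9.22 CPM and from 0.274 to 17.2 CPM. AT2-like cells went from 1.13 to 8.11 CPM and from 1.26 to 7.27 CPM, all below the 2.30 and 8.84 CPM and the 6.33 and 11.6 CPM at that ratio, and without such cells from 0.368 to 2.75 CPM and from 0.234 to 2.74 CPM. Their log2 ratio in the Bdnf pair was 2.84 (2.45 to 3.26), and 3.82 (3.24 to 4.46) with Scrublet doublets removed.

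The barcodes without a cell carried Pdgfrb at 13.4, 14.8 and 81.9 CPM in the controls and 45.9, 91.1 and 271 CPM in the mutants. These are log2 ratios of 1.78 (1.26 to 2.31), 2.62 (2.29 to 2.97) and 1.73 (1.5 to 1.96). The other 5 members had ratios of -0.40 to 0.44 there. In the Bdnf, Hgf and Nodal controls these barcodes held Pdgfa at 166, 157 and 53.4 CPM and Pdgfb at 50.5, 69.4 and 110.3 CPM, above the levels of both in several cell types. How much of a member in cell types at or below these levels was free RNA was not tested.

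The genes beside Pdgfrb on chromosome 18, which a large transgene of the locus might also hold, were read in the same cells. Cdx1, a gut transcription factor gene, ends 8897 bases before Pdgfrb and had at most 1 UMI in any type. Csf1r, the receptor for the macrophage growth factor CSF1, starts 11580 bases after it and was highest in microglia-like cells, with 5019 and 4170.1 CPM in control and mutant cortex. In pericyte-like cells Csf1r had 2.7 and 3.03, 6.67 and 3.08, and 11.5 and 7.90 CPM, and in AT1-like cells, the leading Csf1r-positive type of the gated lung after depletion of leukocytes, 211 and 198 CPM and 301 and 199 CPM. In endothelial-like cells Csf1r had 2.46 and 7.01 CPM in the Bdnf pair (1.51, 1.07 to 1.97), 3.55 and 3.93 CPM in the Hgf pair (0.14, -0.42 to 0.71) and 11.5 and 14.5 CPM in the Nodal pair (0.34, 0.01 to 0.68). Its log2 ratio was -0.27 (-0.29 to -0.25) in microglia-like cells, where that of Pdgfrb was 6.31. The few immune-like lung cells that escaped depletion, 34 to 105 per library, held Pdgfrb at 7.78 and 30.3 CPM and at 4.73 and 19.8 CPM, with a UMI in 4.00% and 14.7% and in 3.06% and 15.2% of cells. Each level lay below that of barcodes without a cell in its library, at 13.4 and 45.9 CPM and at 14.8 and 91.1 CPM. Neither pair had enough Pdgfrb UMIs in these cells for a ratio, and the part of free RNA was not tested.

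Microglia-like cells of the mutant cortex were also higher in ligands. Pdgfa went from 30.2 CPM (25.8 to 35.1) to 86.5 CPM (80.8 to 92.6), a log2 ratio of 1.52 (1.28 to 1.77) at the 99 percentile of all genes in these cells, with a UMI in 13.3% and 26.2% of cells. Pdgfb went from 209 to 297 CPM (286 to 308) at a log2 ratio of 0.51 (0.41 to 0.61). Barcodes without a cell of the same pair had a ratio of 0.06 (-0.28 to 0.39) for Pdgfa, but of 0.40 (0.18 to 0.63) for Pdgfb, which went from 110.3 to 146 CPM there, and the part of free RNA in the Pdgfb of microglia-like cells was not tested. In the mutant cortex the level of Pdgfb in microglia-like cells was above that in endothelial-like cells, 218 CPM (211 to 225), where the control had the reverse order.

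Endothelial Pdgfb was lower in both mutant lungs, and in the cortex the difference depended on the scaling. Its log2 ratio in endothelial-like cells was -0.17 (-0.24 to -0.10) in the Bdnf, -0.47 (-0.54 to -0.40) in the Hgf and -0.09 (-0.17 to -0.01) in the Nodal pair, beside medians over all genes of -0.02, -0.05 and -0.05. With median-of-ratios and TMM scaling the Nodal value became -0.02 (-0.10 to 0.05) and -0.04 (-0.11 to 0.04), whose intervals hold 0. In the aCap-like and gCap-like cells of the Hgf pair it was -0.45 (-0.56 to -0.33) and -0.39 (-0.51 to -0.28), but venous-like cells had 71.5 and 107 CPM, a log2 ratio of 0.58 (0.26 to 0.91). None of the endothelial ratios of Pdgfb reached 2-fold, and those of endothelial-like cells stood at the 29.6, 20.7 and 42.9 percentile of all genes. In the Bdnf pair Pdgfb was also lower in AT2-like cells, at -0.54 (-0.71 to -0.37), and AT1-like cells, at -0.48 (-0.58 to -0.38). In the Hgf pair the same types had -0.15 (-0.40 to 0.10) and 0.15 (0.03 to 0.28). Of all genes with a ratio in endothelial-like cells, 2.31%, 6.26% and 1.27% were past 2-fold higher in the Bdnf, Hgf and Nodal pairs and 1.87%, 6.76% and 1.60% lower. The 8 endothelial markers summed to 16624 and 14812 CPM in the Bdnf and 15991 and 12649 CPM in the Hgf pair. In the Nodal pair they summed to 10760.4 and 10213 CPM. The part of this in the endothelial Pdgfb and Pdgfd ratios was not tested.

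Endothelial Pdgfd was lower in the mutants as well. Its log2 ratio was -0.29 (-0.37 to -0.21), -0.80 (-0.92 to -0.69) and -0.38 (-0.52 to -0.24) in the Bdnf, Hgf and Nodal pairs. These stood at the 18.1, 10.0 and 13.5 percentile of all genes in these cells. In barcodes without a cell the ratio of Pdgfd was -0.40 (-0.68 to -0.12), 0.23 (0.08 to 0.38) and -0.39 (-0.61 to -0.16), so free RNA moved with the endothelial level in the Bdnf and Nodal pairs and against it in the Hgf pair. The part of free RNA in the endothelial ratios was not tested. In gCap-like cells of the Hgf pair Pdgfd went from 92.4 to 42.1 CPM at a log2 ratio of -1.13 (-1.34 to -0.93), and in aCap-like cells from 175 to 117 CPM. Of all genes with a ratio in these gCap-like cells, 6.52% were past 2-fold lower. Venous-like cells had log2 ratios of 0.31 (-0.02 to 0.63), -0.18 (-0.67 to 0.32) and 0.44 (-0.62 to 1.59) in the Bdnf, Hgf and Nodal pairs, with intervals that hold 0. Lung smooth muscle-like cells of the Bdnf pair held 85.8 and 83.8 CPM, a log2 ratio of -0.03 (-0.53 to 0.48). Adventitial fibroblast-like cells of the Hgf pair had 104 and 5 UMIs, 51.4 and 9.70 CPM (-2.41, -4.06 to -1.14), whereas those of the Bdnf pair held 43.1 and 40.1 CPM.

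Pdgfa in AT1-like cells was lower in both mutant lungs. It went from 896 to 653 CPM (639 to 668) at a log2 ratio of -0.46 (-0.50 to -0.41), and from 1068 to 777 CPM (747 to 807) at a log2 ratio of -0.46 (-0.53 to -0.39). Among all genes with a ratio in AT1-like cells these stood at the 8.43 percentile in the Bdnf and the 20.7 percentile in the Hgf pair. AT2-like cells held 99.6 and 96.5 CPM and 87.5 and 85.8 CPM, with intervals of the ratio that hold 0. In lung pericyte-like cells Pdgfa went from 583 to 418 CPM at a log2 ratio of -0.48 (-0.80 to -0.17), and from 494 to 404 CPM, -0.29 (-0.71 to 0.14). In cortex pericyte-like cells it went the other way, from 86.4 to 138 CPM (123 to 153) at a log2 ratio of 0.67 (0.37 to 0.98). In vSMC-like cells it was 0.05 (-0.16 to 0.27).

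Pdgfra was higher in adventitial and matrix fibroblast-like cells of the mutant lungs, and in some types outside the fibroblasts. In adventitial fibroblast-like cells it went from 622 to 1465 CPM (1362 to 1573) in the Hgf pair, a log2 ratio of 1.24 (1.10 to 1.37), and from 636 to 889 CPM in the Bdnf pair, 0.48 (0.43 to 0.54). The 7 identity markers of these cells also differed in the Hgf pair, with a sum of 9541 CPM in 292 control and 5608 CPM in 133 mutant cells, and in the Bdnf pair with 8147 and 6928 CPM. The part of this in the Pdgfra, Pdgfrb and Pdgfd ratios of these cells was not tested. In matrix fibroblast-like cells the log2 ratio was 0.79 (0.60 to 0.97) in the Hgf and 0.15 (0.08 to 0.22) in the Bdnf pair. With another scaling between libraries these became 0.54 and 0.04, and the latter's interval then held 0. Myofibroblast-like cells held 322 and 323 CPM in the Bdnf pair, a log2 ratio of 0.00 (-0.10 to 0.11), and 82.3 and 111 CPM in the Hgf pair, 0.43 (-0.29 to 1.21). The value of the Hgf pair ranged from -0.09 to 0.55 under the alternatives, so its sign was not stable. Cortex fibroblast-like cells had a log2 ratio of 0.40 (0.21 to 0.58). At far lower levels, AT1-like cells had 3.55 and 13 CPM in the Hgf pair (1.93, 1.03 to 2.91) and 10.9 and 20.2 CPM in the Bdnf pair (0.89, 0.58 to 1.21). Endothelial-like cells of the Hgf pair had 5.18 and 12 CPM (1.22, 0.82 to 1.64), and AT2-like cells of the Bdnf pair 8.70 and 14.5 CPM (0.74, 0.56 to 0.91). These AT1-like, AT2-like and endothelial-like levels lay below those of barcodes without a cell. Such barcodes held 46.2 and 57.8 CPM in the Hgf and 126 and 106 CPM in the Bdnf pair, and the part of free RNA was not tested. Mesothelial-like cells of the Bdnf pair were lower in the mutant, with 21 and 14 UMIs in 33 and 112 cells, 62.1 and 15 CPM (-2.05, -3.14 to -1.01), and this was the only Pdgfra ratio past 2-fold in that pair. The 3 OPC-like cells of the control cortex were too few to set against the 25 of the mutant.

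Cells with UMIs of both receptors were counted in the fibroblast types, where the share also depends on the level of Pdgfrb itself, which was higher in the mutants. The exact intervals given here cover the sampling of cells from 1 library, not a difference between genotypes. Adventitial fibroblast-like cells with both were 51.5% (47.6 to 55.3%) and 55.6% (52.4 to 58.7%) in the Bdnf pair and 44.5% (38.7 to 50.4%) and 61.7% (52.8 to 69.9%) in the Hgf pair, while the median depth went from 11236 to 6833 and from 6700.5 to 3572 UMIs per cell. Myofibroblast-like cells with both were 9.88% (8.09 to 11.9%) and 16.7% (14.9 to 18.6%) in the Bdnf pair, and the Hgf pair had 2.83% (0.587 to 8.05%) and 8.11% (5.78 to 11%). The intervals overlapped in adventitial fibroblast-like cells of the Bdnf pair and in myofibroblast-like cells of the Hgf pair. They also overlapped in matrix fibroblast-like cells, with 1.84% and 3.39% in the Bdnf and 1.68% and 2.44% in the Hgf pair, and in cortex fibroblast-like cells, with 58.0% and 60%. Of the pericyte-like cells of the mutants, 2 of 108, 3 of 201 and 1 of 379 had both.

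Pdgfc had a ratio in 5 instances. Astrocyte-like cells held 16.2 and 14.2 CPM, a log2 ratio of -0.19 (-0.56 to 0.18). Endothelial-like cells of the Hgf pair had 2 and 30 UMIs, a log2 ratio of 3.56 (1.58 to 6.67) with 1.81 CPM on the mutant side. Myofibroblast-like cells of the Bdnf pair had 25 and 12 UMIs, -1.46 (-2.59 to -0.42). Both rest on few molecules.

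The partners of the PDGF system were described from lists. In pericyte-like cells, the extracellular partners, which cut, bind or clear the ligands, had medians of 0.19, -0.14 and -0.02 in the Bdnf, Hgf and Nodal pairs. Past 2-fold they had 0 of 6, 1 of 6 and 1 of 7 genes, beside the backgrounds given above. Nrp1, a coreceptor, had 173 and 327 CPM in the Bdnf pair (0.92, 0.46 to 1.39) and 227 and 98.7 CPM in the Hgf pair (-1.20, -1.94 to -0.46), opposite directions. Col1a1, a collagen gene, had 8.77 and 17.9 CPM in the Nodal pair (1.03, 0.11 to 2.05) and 1155 and 1526 CPM in the Bdnf pair (0.40, 0.21 to 0.59). The proteases that cut the latent ligands had 120.1 and 185 CPM (Plat, Hgf pair, 0.62, -0.16 to 1.47) and 25.6 and 40.3 CPM (Plau, Nodal pair, 0.65, 0.10 to 1.23).

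The signal transducers below the receptors had medians of 0.09, 0.24 and 0.06 in pericyte-like cells, with 0 of 16, 0 of 13 and 1 of 18 genes past 2-fold. That gene was Plcg1, a phospholipase bound by the activated receptors, at 25.6 and 12.1 CPM in the Nodal pair (-1.09, -1.84 to -0.35). The largest ratios of the lung pairs had intervals that hold 0: the adaptors Shc1 (0.73) and Gab1 (0.60) in the Bdnf pair, and the adaptor Grb2 (0.81) and the kinase Mapk3 (0.72) in the Hgf pair. In the Nodal pair that of the adaptor Nck1 (0.54) did too.

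The attenuators, which end receptor signalling, had medians of 0.02, -0.32 and 0.05 in pericyte-like cells, with 0 of 8, 2 of 7 and 0 of 10 past 2-fold. The 2 were Dusp6, a phosphatase of the ERK kinases, with 340.4 and 111 CPM (-1.62, -2.27 to -0.97), and Spry2, a Sprouty inhibitor, with 180.2 and 86.4 CPM (-1.06, -1.88 to -0.24), both in the Hgf pair. In the Bdnf pair the same genes had 0.45 (-0.03 to 0.92) and 0.68 (0.03 to 1.35). In the Nodal pair the largest were Socs3 at -0.41 (-0.77 to -0.05) and Ptpn2 at 0.36 (-0.16 to 0.91).

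The mural genes outside the cell type gates had medians of -0.28, -0.51 and 0.05 in pericyte-like cells. Past 2-fold were 1 of 10, 1 of 10 and 0 of 10, with Rgs5 higher in the Bdnf pair (208 and 448 CPM, 1.11, 0.70 to 1.53) and Pde5a, a cGMP phosphodiesterase, lower in the Hgf pair (3637 and 1573 CPM, -1.21, -1.39 to -1.03). Cspg4 was lower in both lung pairs, by -0.56 (-0.90 to -0.23) and -0.93 (-1.40 to -0.45). In the Nodal pair the largest ratios were 0.23 (Bgn, a matrix proteoglycan) and 0.22 (Heyl, a Notch target). No gene of the 4 lists was past 2-fold higher in pericyte-like cells in more than 1 pair. At the background shares given above few genes of any short list would be, and the number among all genes was not counted.

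In endothelial-like cells, which send the ligands, the extracellular partners had medians of 0.16, 0.14 and -0.25, with Plau lower in the Hgf pair from 36.9 to 9.64 CPM (-1.94, -2.20 to -1.68) and Col1a1 lower in the Nodal pair from 3.36 to 1.34 CPM (-1.32, -2.16 to -0.50). The transducers had medians of -0.01, -0.11 and -0.03 and no gene past 2-fold in any pair. Among the attenuators, with medians of 0.20, -0.17 and -0.03, Spry1 was past 2-fold higher (63.8 to 173 CPM, 1.44, 1.33 to 1.55) and Dusp6 past 2-fold lower (375 to 185 CPM, -1.02, -1.08 to -0.95) in the Hgf pair, where the endothelial background was itself the highest of the 3 pairs. The mural genes, some of which endothelial cells also make, had medians of 0.25, -0.43 and 0.39 in endothelial-like cells, with 0, 1 and 3 of 10 past 2-fold higher and 0, 1 and 0 lower. In the Nodal pair Heyl went from 0.525 to 2.16 CPM (2.04, 0.69 to 3.75) and Rgs5 from 61.5 to 136 CPM (1.14, 1.01 to 1.28). The higher Rgs5 level lay in a smaller share of these cells, with a UMI in 29.0% of control and 16.9% of mutant cells. In the Hgf pair Heyl had 4.16 and 8.68 CPM (1.06, 0.61 to 1.54) and Cspg4 2.34 and 0.833 CPM (-1.49, -2.52 to -0.54). The part of mural RNA in the endothelial Pdgfrb was not tested beyond the values above.

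The genes whose levels followed those of a member most closely were named from log2(CPM + 1) over the 32 cell types of the 3 controls, among 10623 genes with at least 50 CPM in 1 of them. These correlations describe cell types that share libraries and depth. Pdgfrb was most like C1qtnf5 (Pearson r = 0.905), Mfrp (0.903) and Cspg4 (0.894), of which the first pair overlap in the genome and may share tags. Pdgfra was most like Mfap4 (0.883), a protein of elastic fibres, Srpx2 (0.854) and Tmem132c (0.852). Pdgfd was most like Plpp1 (0.813), a lipid phosphatase, Kif26a (0.753) and Jcad (0.751), a junction protein of endothelial cells. Pdgfb was most like Fnbp1l (0.705), Edn1 (0.703), the endothelin-1 gene, and Hbb-bs (0.689), a haemoglobin gene of erythrocytes. Pdgfa was most like Ajuba (0.750), Arhgap1 (0.741) and Zc2hc1a (0.739), and Pdgfc, at its low level, like Mapk4 (0.725), Hspa9 (0.722) and Arnt2 (0.664).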

How the data were processed

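Libraries were made with BD Rhapsody whole transcriptome beads, which tag the 3′ ends of RNA. The authors mapped reads with STARsolo of STAR 2.7.10a to GRCm39 with Gencode annotation, shared multimapping reads between genes by expectation maximisation and applied no cell filter. The deposited values are therefore expected counts (estimated counts of UMIs) per gene and barcode, of which 8.50 to 9.95% of entries were fractional. Sums over cells were rounded to whole counts for intervals. The annotation version is given differently in different places of the sources, and coordinates were read from another Gencode version of the same build.

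Barcodes with at least 1500 UMIs (700 in the Hgf pair, which is shallower) were kept. Each was assigned a cell type by marker scores (score at least 0.25, second score at most 0.5 of the first, 3 markers detected), and types with fewer than 20 cells were left out. Mixed barcodes were left unassigned in place of a doublet filter. Scrublet marked 0.649 to 7.99% of barcodes and their removal was an alternative. Poisson and Clopper-Pearson 95% intervals and the conditional exact interval of a ratio of Poisson counts were used. For a level of 0 the upper bounds in CPM are those of the Poisson interval, which lie above the floor of 3 counts given for Nodal. Scripts used numpy 2.4.6, scipy 1.17.1, scanpy 1.11.5 and leidenalg 0.10.2, and TMM factors came from edgeR 4.0.16. The ratio intervals were tested on simulated Poisson counts. This is the distribution they assume, so the simulation cannot show how they hold for UMIs gathered in few cells.

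The members, the gene lists and the rules for named genes (members, the 2 most different genes of each list, neighbours of Pdgfrb, the 3 most similar genes, targeted genes) were chosen with earlier results of these data known. Alternatives were a stricter gate, a minimum of 1000 UMIs, a mitochondrial limit, removal of doublets, Leiden clusters in place of gates, and median-of-ratios and TMM scaling.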

Additional observations from a re-analysis of the deposited data

Results flagged for a closer look

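Some members moved in opposite directions between pairs, with intervals that leave out 0 on both sides. In endothelial-like cells the log2 ratio of Pdgfa was 0.32 in the Bdnf and 0.29 in the Nodal pair but -0.25 in the Hgf pair. In pericyte-like cells Pdgfa was at -0.48 in the Bdnf lung and 0.67 in the Nodal cortex. In AT1-like cells Pdgfb was at -0.48 in the Bdnf and 0.15 in the Hgf pair. The differences between pairs were not tested, since each genotype had 1 library, and the pairs also differ in depth, and for the cortex in tissue and age.

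Barcodes without a cell, which enter no comparison of cell types, held Pdgfrb at 45.9 CPM in the Bdnf iPCKO lung, 91.1 CPM in the Hgf iPCKO lung and 271 CPM in the Nodal iPCKO cortex, above the 13.4, 14.8 and 81.9 CPM of their controls.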

How the results depend on the processing

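No paired analysis was possible because each genotype had 1 library and no test was made. The alternatives were run for the planned ratios, for Pdgfrb in types of low level and for some ligand ratios only. None of these whose interval left out 0 changed direction. Endothelial Pdgfb of the Nodal pair (-0.09) fell to -0.02 and -0.04 with the other scalings, with intervals that hold 0. Ratios of endothelial subtypes and of list genes, and those of Pdgfrb in vSMC-like cells and fibroblast types, were not rerun. Pdgfrb in pericyte-like cells stayed at 1.63 to 1.78 (Bdnf), 1.56 to 1.72 (Hgf) and 1.31 to 1.38 (Nodal), and in microglia-like cells at 6.30 to 7.06. Pdgfa in AT1-like cells moved from -0.46 to -0.55 with TMM scaling (Bdnf) and to -0.38 with Leiden clusters (Hgf). Pdgfra in matrix fibroblast-like cells moved in the Bdnf pair from 0.15 to 0.24 (stricter gate), 0.02 (median-of-ratios scaling) and 0.04 (TMM), and in the Hgf pair from 0.79 to 0.59, 0.58 and 0.54, and to 0.52 with Leiden clusters. In OPC-like cells, where 3 control cells are too few for a comparison, the planned value moved from 0.74 to 1.17 (TMM) and no use is made of it. Alternatives for low Pdgfrb levels and for ligands, chosen after seeing the data, gave 95 values close to the reported ones and 12 that moved, among them Pdgfrb in AT1-like cells, which reached 4.13 (Leiden clusters, Bdnf) and 5.97 (cells without a mural UMI, Hgf), Pdgfrb in AT2-like cells of the Bdnf pair, which went from 2.84 to 3.82 (3.24 to 4.46) without Scrublet doublets, and the endothelial ratio of the Nodal pair, 1.30 (-0.48 to 3.70) in cells without a mural UMI, down from 2.39. The number of genes past 2-fold in pericyte-like cells, over the pairs and both directions, was 857 with a minimum of 30 UMIs, 1616 with 10 and 1939 with 1. The highest cell type was unchanged in 28 to 36 of 36 combinations of gene and library. Leiden clusters gave no pericyte-like cluster in the Bdnf lungs, no smooth muscle-like cluster in the Hgf lungs and no OPC-like cluster, so they gave no value there nor for the count of genes. Depth limits Pdgfc, Bdnf and the types under 100 cells.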
